A study of Arabidopsis thaliana with 9 samples.

Results

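In Arabidopsis seedlings 31 probe sets were higher than wild type in cyp78a5,7 and lower than wild type in amp1-13, of 22746 measured. A probe set is a group of short probes on the array that reads the transcripts of 1 gene or of a few near-identical genes. Members were chosen on the log2 of the deposited signal plus 16, with no further normalization. The mean over the arrays of a genotype had to lie at least 0.4 above wild type in cyp78a5,7 and at least 0.4 below wild type in amp1-13, and every cyp78a5,7 array had to lie above every amp1-13 array. RD29A, COR15B, XERO2, COR47 and AT2G38240 were left out by name. The best-known gene pair among the members is KIN1/KIN2, cold-inducible genes that share 1 probe set, and the largest distance between the mutants was that of AT1G10585, which encodes a bHLH transcription factor.

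The samples were whole seedlings of age 10 d from liquid medium in multi-well plates, with 3 biological replicates of each genotype (Col-0 as wild type, cyp78a5,7 and amp1-13) on 9 Affymetrix ATH1 arrays. All genotypes shared the Col-0 background, 1% sucrose, 1% DMSO, 26 °C and 16 h of light. The cyp78a5,7 line carries T-DNA insertions in the cytochrome P450 genes CYP78A5 and CYP78A7, and amp1-13 carries a T-DNA insertion in AMP1, which encodes a putative carboxypeptidase. The study calls amp1-13 a putative null allele, and its arrays had already served in work on hyperphyllin, a compound. Of the targeted genes a probe set could be named for CYP78A7 alone, and its signal was 11.5, 9.46 and 12.7 in wild type, 21.2, 25.0 and 37.1 on the arrays labelled cyp78a5,7 and 12.2, 31.9 and 28.7 in amp1-13. Every cyp78a5,7 array was thus above every wild type array for a gene that carries an insertion in this line. This goes against the label if the probes read a lost part of the transcript. The signals were dim, with 4 arrays under the added 16, and the limma fit made no call (log2 fold change 0.66 ± 0.21, adjusted p = 0.0535). By semiquantitative RT-PCR the study detected no CYP78A7 fragment in seedlings of the cyp78a7 single mutant. Where these probes lie relative to the insertion is not known here, so the genotypes rest on the labels, which this gene could not check. The label names the RNA source as a whole seedling, and for every value below, a smaller number of cells of a type and less RNA per cell cannot be told apart.

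Both AMP1 and the CYP78A enzymes restrain the shoot apical meristem and the rate at which leaves form. Cold, drought and the hormone abscisic acid raise an overlapping set of plant genes, which includes the KIN, COR and RD29 genes. The CBF transcription factors bind the promoters of many of these genes during cold, and abscisic acid acts on them through bZIP factors. Many of the encoded proteins are small, hydrophilic and thought to protect cells from water loss.

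Of all probe sets, 3350 met the threshold for cyp78a5,7, 2364 met the one for amp1-13 and 32 met both. None of the 32 had overlapping mutant arrays, and RD29A was the 1 among them that the rule left out, which gave the 31 members. COR15B, XERO2, COR47 and AT2G38240 did not meet the thresholds. The opposite pattern, lower in cyp78a5,7 and higher in amp1-13 at the same thresholds, was met by 149 probe sets. The annotation of the platform named 1 gene for 15 members, the gene table of the study named 2 more (MES5 and CB5-C), 2 members were shared by neighbouring genes, and 12 had no name in either source and are given by their probe set. In the whole series 7868 probe sets had no name.

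**Figure D1:**
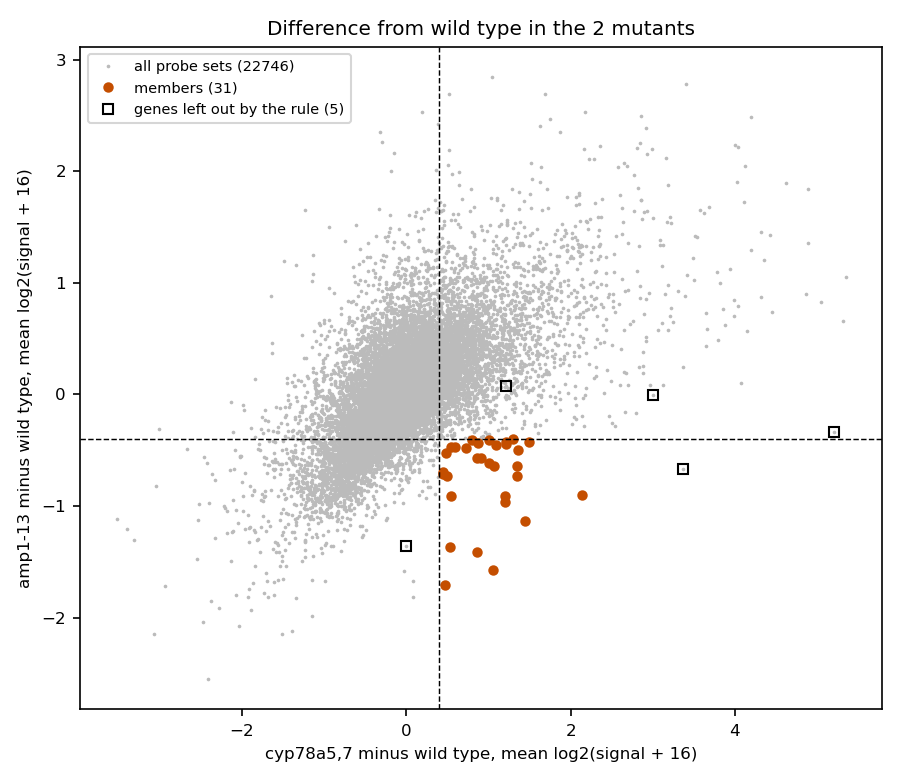
The difference from wild type in mean log2(signal + 16) is plotted for cyp78a5,7 (horizontal axis) and amp1-13 (vertical axis), with 22746 probe sets in grey, the 31 members in orange, the 5 genes left out by the rule as open squares and the thresholds of 0.4 as dashed lines. The members fill the lower right corner, where few probe sets lie.

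All 3 contrasts between the genotypes entered the rule, so the values of the members are a description, and the calls of the limma fit given below for the members are no test of the pattern. On the scale of the rule the median member lay 1.01 above wild type in cyp78a5,7 and 0.62 below it in amp1-13 (log2). After quantile normalization, in a limma fit to all 9 arrays, the median log2 fold change of the members was 0.97 in cyp78a5,7 (range 0.41 to 2.07) and -0.66 in amp1-13 (range -1.81 to -0.31), where the medians of all probe sets were -0.024 and -0.011. The difference from wild type was larger in cyp78a5,7 than in amp1-13 for 22 members and smaller for 9. The fit shares its spread over the 3 genotypes, so a probe set has the same standard error in both mutants. The error and adjusted p of an amp1-13 difference thus also hold the spread of the cyp78a5,7 arrays. Calls required both a Benjamini-Hochberg adjusted p under 0.05 and at least a 2-fold difference. By this criterion 10 members were called higher in cyp78a5,7 than in wild type (4.37% of all probe sets), 2 were called lower in amp1-13 than in wild type (0.796% of all) and 29 were called higher in cyp78a5,7 than in amp1-13 (2.15% of all). By the adjusted p alone the counts were 16 (10.3% of all), 5 (6.67%) and 29 (5.39%). Nothing is read from these counts, since the members were selected on the same contrasts.

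The members were brighter than most probe sets. In wild type their mean signal had a median of 116.8 (35.4 for all probe sets), in cyp78a5,7 of 246.5 (36.4) and in amp1-13 of 58.5 (38.2). The added 16 shrinks the differences of dim probe sets, so the rule itself favours bright ones, and this brightness is no finding about the members. For 4 members the mean signal in amp1-13 was below the added 16. These were AT1G10585, AT1G16850, the probe set of AT2G02000 and AT2G02010, and 260492_at.

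**Figure D2:**
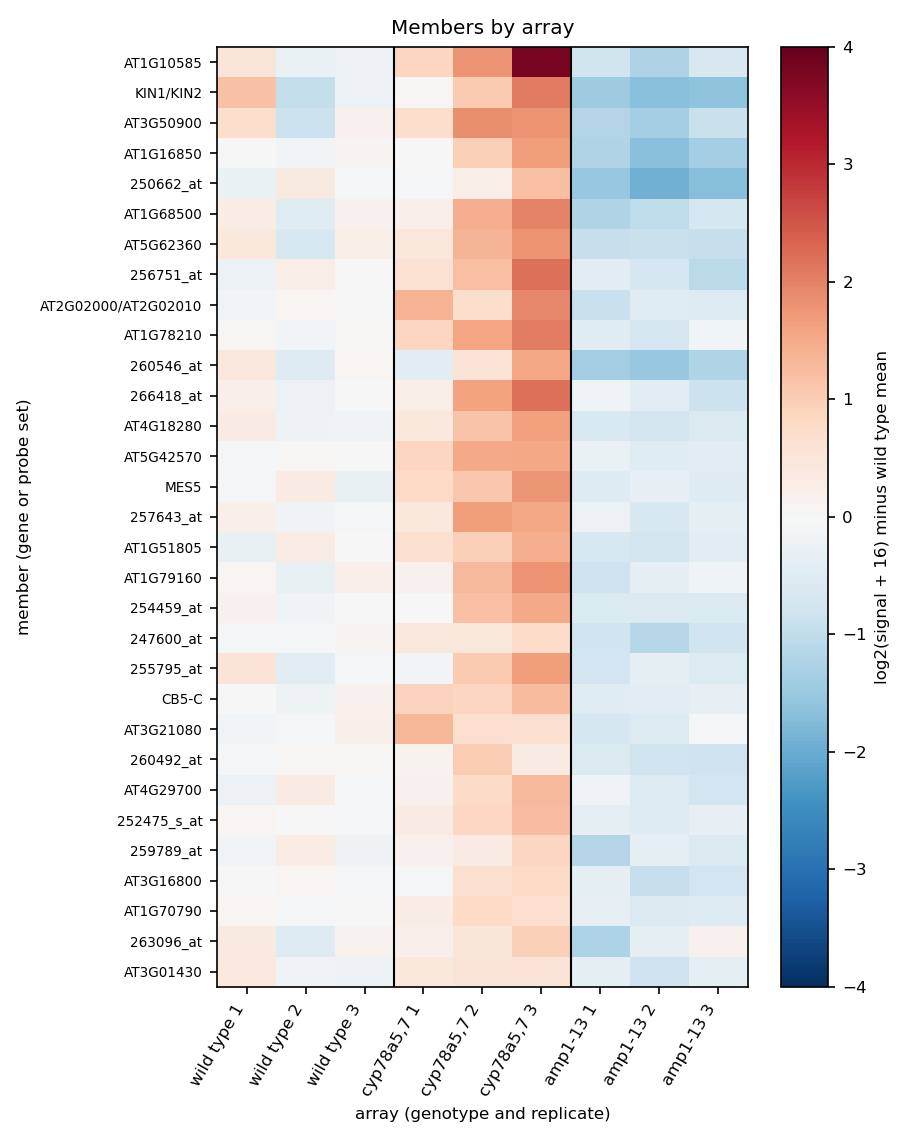
Each row is a member, each column an array, and the colour gives log2(signal + 16) minus the wild type mean, from blue (lower) to red (higher). The cyp78a5,7 columns are mostly red and the amp1-13 columns mostly blue, and cyp78a5,7 array 1 is paler than arrays 2 and 3.

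Of the members with roles in transcription and signalling, AT1G10585 showed the largest difference between the mutants. The signal of AT1G10585 was 39.6, 17.3 and 18.2 on the wild type arrays, 55.8, 122 and 534 on the cyp78a5,7 arrays and 6.79, 0.801 and 9.44 on the amp1-13 arrays. The 3 genotypes did not overlap, and cyp78a5,7 array 3 held most of the high mean. In wild type the mean signal was 25.0 ± 12.7 (SD, n = 3), in cyp78a5,7 it was 237 ± 259 and in amp1-13 it was 5.68 ± 4.42, and the log2 fold change was 2.07 ± 0.64 (SE) in cyp78a5,7 and -0.95 ± 0.64 in amp1-13. All amp1-13 arrays were under the added 16, so no ratio of signals is given for AT1G10585, and its mutants differed by 3.04 on the log2 scale of the rule.

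AT1G51805 encodes a leucine-rich repeat receptor kinase, one of the cell surface kinases of plants. Its signal was 232, 353 and 285 in wild type, 455, 564 and 806 in cyp78a5,7 and 176, 166 and 203 in amp1-13. The genotypes were separate on all 9 arrays. Its log2 fold change was 0.97 ± 0.21 in cyp78a5,7 and -0.65 ± 0.21 in amp1-13, and the mutants differed 3.35-fold in mean signal.

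AT3G16800, a protein phosphatase of the 2C type, and AT1G70790, a protein with a C2 domain, had smaller differences. The phosphatase gave 37.0, 40.2 and 35.0 in wild type, 34.7, 66.6 and 76.7 in cyp78a5,7 and 24.4, 12.3 and 15.5 in amp1-13, so that cyp78a5,7 array 1 lay below all wild type arrays and the amp1-13 arrays lay apart. The C2 domain gene gave 90.6, 79.7 and 87.2 in wild type, 109.5, 160.4 and 146 in cyp78a5,7 and 64.4, 52.7 and 55.2 in amp1-13. No genotype overlapped another in AT1G70790, and its log2 fold changes were equal in size, at 0.55 ± 0.15 in cyp78a5,7 and -0.55 ± 0.15 in amp1-13.

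The KIN1/KIN2 probe set matches both neighbouring genes, which encode small cold- and abscisic acid-inducible proteins, and the genes could not be told apart. Its signal was 2137, 481 and 796 in wild type, 962, 1972 and 3984 in cyp78a5,7 and 339, 285 and 294 in amp1-13. The amp1-13 arrays lay close together and below all others, while the wild type and cyp78a5,7 arrays overlapped, since wild type array 1 was above 2 of the cyp78a5,7 arrays. In wild type the mean was 1138 ± 879.6 (SD, n = 3), in cyp78a5,7 it was 2306 ± 1539 and in amp1-13 it was 306 ± 28.9. The KIN1/KIN2 log2 fold change was 1.24 ± 0.57 in cyp78a5,7, -1.49 ± 0.57 in amp1-13 and 2.73 ± 0.57 between the mutants, a ratio of mean signals of 7.54.

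**Figure D3:**
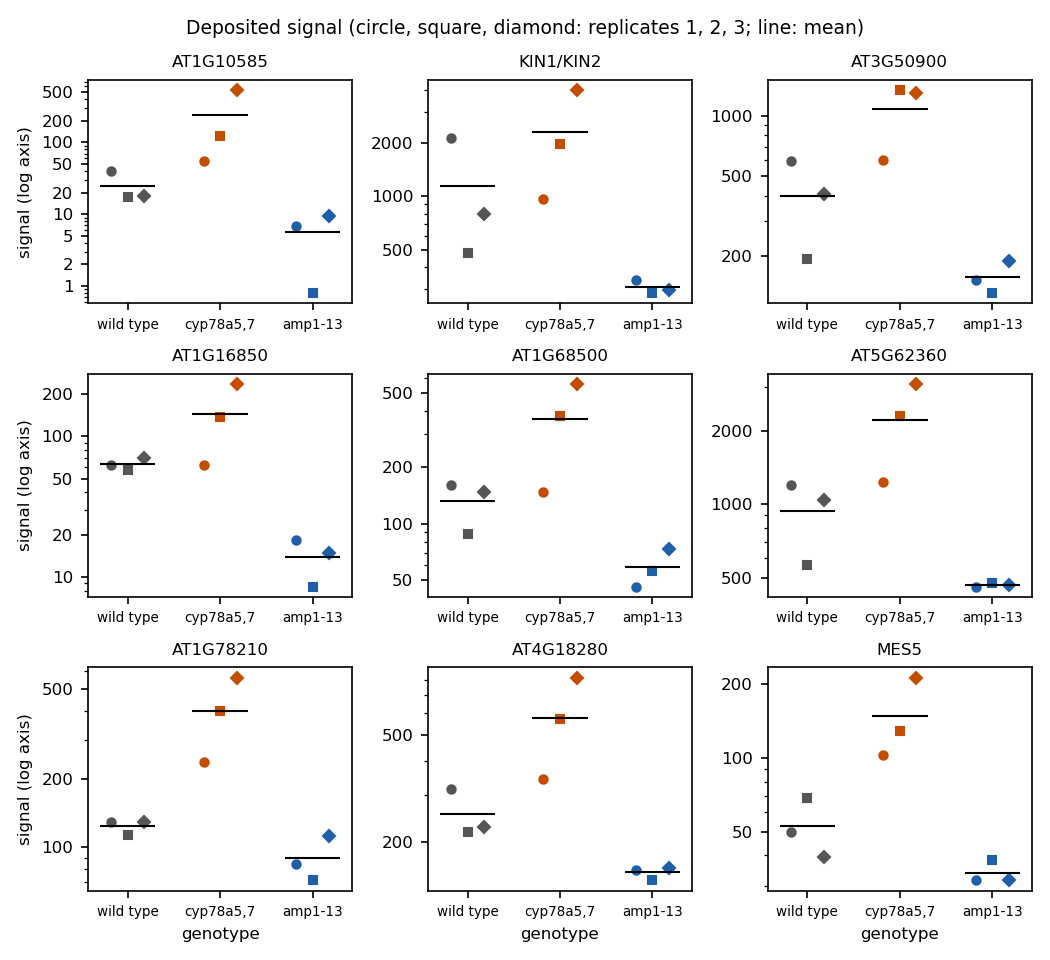
The deposited signal of 9 named members is plotted on a log axis for each genotype, with a circle, a square and a diamond for replicates 1, 2 and 3 and a line for the mean. Replicate 3 is the highest cyp78a5,7 array in all panels but that of AT3G50900, and wild type replicate 1 is above replicate 2 in all but MES5.

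Of the members with roles at the cell wall, AT5G62360 belongs to the family of pectin methylesterase and invertase inhibitors, which act on enzymes outside the cell. Its signal was 1199, 563 and 1043 in wild type, 1234, 2299 and 3104 in cyp78a5,7 and 459, 478 and 465 in amp1-13. All cyp78a5,7 arrays were above wild type, array 1 by little, and the amp1-13 arrays were nearly equal to one another. Its log2 fold change was 1.39 ± 0.33 in cyp78a5,7 and -0.81 ± 0.33 in amp1-13, and the mutants differed 4.73-fold in mean signal. AT4G18280, a relative of glycine-rich cell wall proteins, gave 316, 218 and 228 in wild type, 343, 572 and 815 in cyp78a5,7 and 158, 144 and 161 in amp1-13. The 3 genotypes of AT4G18280 were again separate, with cyp78a5,7 array 1 just above wild type array 1, and its mean signals in the mutants differed 3.73-fold.

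Enzymes of metabolism made up a further group. AT2G02000 and AT2G02010 share a probe set and encode glutamate decarboxylases, which make gamma-aminobutyric acid. Their signal was 23.7, 29.2 and 27.5 in wild type, 96.7, 54.3 and 146 in cyp78a5,7 and 6.99, 14.4 and 13.5 in amp1-13. Here cyp78a5,7 array 2 was the lowest of its genotype and not array 1, no genotypes overlapped, and all amp1-13 arrays were below the added 16. The log2 fold change of AT2G02000/AT2G02010 was 1.30 ± 0.25 in cyp78a5,7 and -0.71 ± 0.25 in amp1-13, and the mutants differed by 1.99 on the log2 scale of the rule.

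AT1G78210 encodes an alpha/beta hydrolase, and MES5 belongs to the methylesterase family, whose members remove methyl groups from hormone esters. AT1G78210 gave 129, 114 and 129 in wild type, 238, 402 and 564 in cyp78a5,7 and 84.6, 71.4 and 113 in amp1-13. MES5 gave 49.9, 68.8 and 39.3 in wild type, 102, 128 and 212 in cyp78a5,7 and 31.6, 38.3 and 31.8 in amp1-13. Both were separate in all genotypes, but the highest amp1-13 array lay just under the lowest wild type array. The rise over wild type in mean signal was 3.24-fold for AT1G78210 and 2.80-fold for MES5, and the wild type mean was 1.38 and 1.55 times that of amp1-13.

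CB5-C encodes a cytochrome b5, an electron carrier for enzymes of the endoplasmic reticulum, and varied little within each genotype. Its signal was 321, 277 and 364 in wild type, 621, 589 and 782 in cyp78a5,7 and 224, 235 and 251 in amp1-13. The genotypes were separate, and the log2 fold change was 0.99 ± 0.13 in cyp78a5,7 and -0.41 ± 0.13 in amp1-13. AT4G29700, of the alkaline phosphatase type, was less regular, with 94.9, 147 and 109 in wild type, 130.4, 205 and 303 in cyp78a5,7 and 104, 74.2 and 61.3 in amp1-13. Both mutants overlapped wild type in AT4G29700, each by its array 1.

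AT5G42570 encodes a relative of the mammalian B-cell receptor-associated protein 31 of the endoplasmic reticulum. It gave 191, 204 and 195 in wild type, 366, 595 and 603 in cyp78a5,7 and 159.6, 135 and 140.2 in amp1-13. Its wild type arrays were close together and no genotypes overlapped. The log2 fold change was 1.26 ± 0.17 in cyp78a5,7 and -0.44 ± 0.17 in amp1-13, and AT5G42570 was the member nearest to the amp1-13 threshold.

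No role is given here for AT3G50900, AT1G16850, AT1G68500, AT1G79160, AT3G21080 and AT3G01430. AT3G50900 gave 595, 193 and 406 in wild type, 599.9, 1345 and 1295 in cyp78a5,7 and 153, 131 and 189.6 in amp1-13. Arrays of cyp78a5,7 and wild type did not overlap, but array 1 of each was nearly the same, and the highest amp1-13 array was just under wild type array 2. Its log2 fold change was 1.51 ± 0.41 in cyp78a5,7 and -1.11 ± 0.41 in amp1-13.

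AT1G16850 was among the members that differed more in amp1-13. It gave 62.4, 57.6 and 69.5 in wild type, 62.3, 136 and 235 in cyp78a5,7 and 18.4, 8.53 and 14.9 in amp1-13. The amp1-13 arrays were far below the others, and cyp78a5,7 array 1 lay inside the wild type range. The log2 fold change of AT1G16850 was 0.81 ± 0.37 in cyp78a5,7 and -1.50 ± 0.37 in amp1-13, and it was called in the latter contrast together with 250662_at.

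AT1G68500 gave 160.2, 88.0 and 147 in wild type, 148, 375 and 556 in cyp78a5,7 and 46.2, 56.0 and 73.3 in amp1-13. AT1G79160 gave 134, 101 and 148 in wild type, 145, 333 and 476 in cyp78a5,7 and 64.3, 93.0 and 113 in amp1-13. In both genes cyp78a5,7 array 1 fell among the wild type arrays while arrays 2 and 3 were well above them. AT3G21080 had its highest cyp78a5,7 signal on array 1, with 92.0 against 52.4 and 51.1 on arrays 2 and 3, and gave 23.6, 24.7 and 33.9 in wild type and 11.3, 13.4 and 24.7 in amp1-13. It was the 1 member with array 1 on top in this mutant. AT3G01430 was the most even in cyp78a5,7, at 63.8, 69.1 and 69.6, against 62.5, 38.1 and 34.2 in wild type and 29.8, 17.4 and 30.5 in amp1-13.

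The 12 members without a name had log2 differences on the scale of the rule from 0.45 to 1.36 in cyp78a5,7 and from -1.71 to -0.41 in amp1-13. The largest fall in amp1-13 of all members was that of 250662_at, with 132, 208 and 151 in wild type, 156, 195 and 389 in cyp78a5,7 and 45.7, 31.1 and 38.0 in amp1-13. The amp1-13 arrays stood apart, and cyp78a5,7 arrays 1 and 2 lay within the wild type range. Arrays of a genotype lay close together for 247600_at, at 110.1, 107 and 124 in wild type, 161, 159.7 and 199.9 in cyp78a5,7 and 58.9, 42.4 and 58.2 in amp1-13, without overlap. The brightest member, 263096_at, gave 2459, 1325 and 2111 in wild type, 2202, 2668 and 3700 in cyp78a5,7 and 798, 1486 and 2159 in amp1-13. Both mutants overlapped wild type in 263096_at, it was not called between the mutants, and it alone missed the thresholds after quantile normalization.

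The spread between arrays of a genotype was wide among the members, in cyp78a5,7 above all. The distance from the lowest to the highest cyp78a5,7 array had a median of 1.19 (log2) over the members, against 0.31 over all probe sets. It was 0.37 over the 12821 probe sets within the range of mean levels of the members. Over the 995 probe sets called higher in cyp78a5,7 it was 0.73. These had passed a test that favours a small spread and the members had not, so that value is no like comparison. In wild type the median distance was 0.50 for the members and 0.35 for all probe sets, and in amp1-13 0.40 and 0.25. Array 3 was the highest of the cyp78a5,7 arrays in 26 of the 31 members, where it was the highest in 31.3% of all probe sets and in 49.1% of those called higher in cyp78a5,7. Array 1 was the lowest in 27 members, against 31.3% of all probe sets and 53.5% of those called. The members had been selected partly on these arrays, so the order is a description.

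Taken array by array, the median member lay 0.34 above the wild type mean on cyp78a5,7 array 1, 1.02 on array 2 and 1.55 on array 3. Above every wild type array lay 19 members on array 1 (29.0% of all probe sets), 29 on array 2 (26.6%) and 31 on array 3 (27.2%). The amp1-13 arrays were alike, with medians of -0.65, -0.68 and -0.59, and with 29, 29 and 28 members below every wild type array (30.7%, 25.7% and 29.0% of all probe sets). Over whole genotypes, every cyp78a5,7 array was above every wild type array in 19 members (14.0% of all probe sets), every amp1-13 array was below in 25 (15.3% of all), and both held in 17 (0.295% of all). Whether the condition of single samples had a part in the spread of cyp78a5,7 was not tested.

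**Figure D4:**
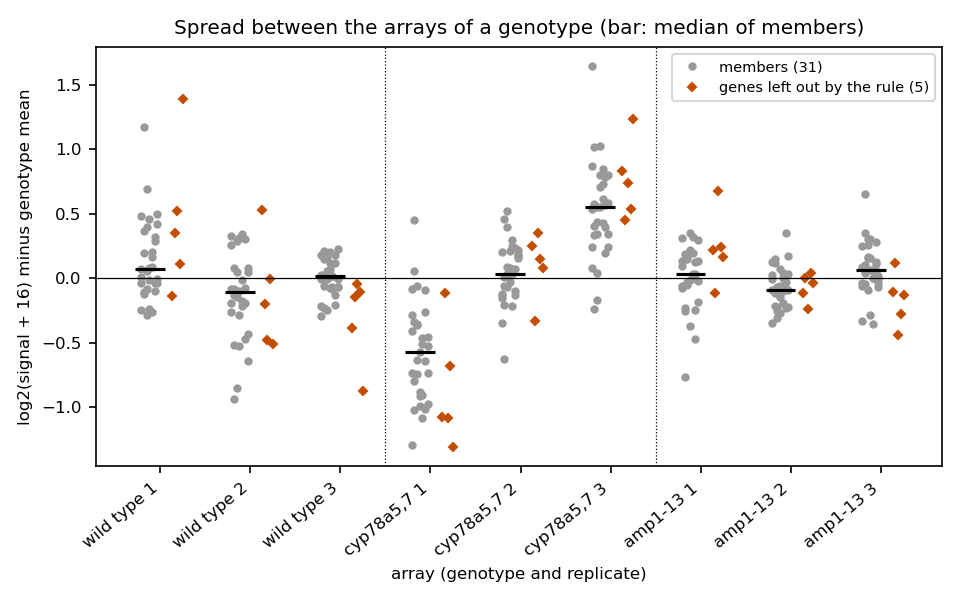
For each of the 9 arrays the points give log2(signal + 16) minus the mean of the genotype, with the 31 members as grey circles, their median as a bar and the 5 genes left out by the rule as orange diamonds. The bars lie near 0 on the wild type and amp1-13 arrays, well below 0 on cyp78a5,7 array 1 and well above 0 on array 3, and most of the diamonds follow them.

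The thresholds cut through a continuous range. Just inside the cyp78a5,7 threshold lay 259789_at (0.45), AT3G16800 (0.45) and 250662_at (0.47), and just outside it 251785_at (0.39), AT3G47980 (0.38) and 260423_at (0.37). Just inside the amp1-13 threshold lay AT5G42570 (-0.404), 252475_s_at (-0.405) and CB5-C (-0.409), and just outside it AT3G15650 (-0.395), AT3G60450 (-0.391) and 253162_at (-0.386), all on the log2 scale.

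The genes left out by the rule include well-studied cold and dehydration genes. RD29A, a standard reporter of cold and abscisic acid responses, gave 110.2, 185 and 90.0 in wild type, 664, 1693 and 2539 in cyp78a5,7 and 85.6, 64.7 and 65.1 in amp1-13. All genotypes were separate and the rise in cyp78a5,7 was far larger than the difference in amp1-13, where the limma fit gave a log2 fold change of -0.76 ± 0.45 (adjusted p = 0.321). The dehydrin gene XERO2 gave 319.8, 152 and 211 in wild type, 870.1, 2385 and 3120 in cyp78a5,7 and 358, 182 and 156 in amp1-13. Its cyp78a5,7 arrays were all above the others, and wild type and amp1-13 overlapped. COR47, also a dehydrin gene, behaved alike, with 1206, 1110 and 1036 in wild type, 1627, 2898 and 3788 in cyp78a5,7 and 1388, 1207 and 964 in amp1-13.

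COR15B, which encodes a chloroplast protein that protects membranes during freezing, gave 98.5, 62.1 and 65.1 in wild type, 66.9, 55.0 and 106 in cyp78a5,7 and 16.3, 19.0 and 22.1 in amp1-13. It was lower in amp1-13 without overlap, by a log2 fold change of -1.43 ± 0.23 (limma, adjusted p = 0.00856), and overlapped with wild type in cyp78a5,7. AT2G38240 (JOX4), a jasmonate oxidase gene, gave 64.4, 5.55 and 0.723 in wild type, 440.2, 1176 and 2640 in cyp78a5,7 and 11.3, 7.70 and 6.28 in amp1-13. The cyp78a5,7 arrays were far above all others, the amp1-13 arrays lay within the wild type range, and the wild type arrays differed widely among themselves.

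The cold and dehydration genes, beside the members, gave 12 named probe sets of 27 genes listed. They include RD29A, COR15B, XERO2 and COR47, described above, so the counts below reuse these genes. RD29A, XERO2 and COR47 are among those called higher in cyp78a5,7, and COR15B among those called lower in amp1-13. Of the 12, 7 were named only by the gene table of the study, which was itself chosen on these samples and is not independent evidence of a direction. Of the 12, 7 were called higher and 2 lower in cyp78a5,7 (4.37% and 2.64% of all probe sets), and 1 was called higher and 3 lower in amp1-13 (1.80% and 0.796% of all). The median log2 fold change was 1.43 in cyp78a5,7 and -0.07 in amp1-13. Array 3 was the highest cyp78a5,7 array in 7 of the 12 (31.3% of all probe sets, 49.1% of those called higher in cyp78a5,7). Array 1 was the lowest in 6 (31.3% of all, 53.5% of those called). Nothing about this list is read from these counts, since 7 of the 12 were themselves called higher. RD29A (3.39 ± 0.45, adjusted p = 0.00153), XERO2 (3.11 ± 0.51, adjusted p = 0.00363) and LEA14 (1.99 ± 0.17, adjusted p = 0.000343) rose the most in cyp78a5,7, by limma with Benjamini-Hochberg adjustment. CBF3, one of the CBF transcription factor genes, fell in both mutants, by 1.25 in cyp78a5,7 (adjusted p = 0.000488) and by 1.04 in amp1-13 (adjusted p = 0.00317). GOLS2, which encodes a galactinol synthase, also fell in both, by 1.64 (limma, adjusted p = 0.00266) and by 1.86 (adjusted p = 0.0041). Both genes were dim in the mutants, with 3 arrays under the added 16 for CBF3 and 5 for GOLS2, so the sizes of these falls are uncertain.

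Of the abscisic acid genes 5 of 19 had a named probe set, all through the gene table of the study. All 5 were called higher in cyp78a5,7 (4.37% of all probe sets). That table was chosen on these samples, so these genes had already been selected for a difference and the count is no independent evidence. In amp1-13 all 5 log2 fold changes were above 0 and 2 were called higher (1.80% of all). However, 0 were called without amp1-13 replicate 1 or wild type replicate 3, and 1 without amp1-13 replicate 2 or 3 or wild type replicate 2. HVA22D rose by a log2 fold change of 2.66 ± 0.35 in cyp78a5,7 (adjusted p = 0.00153) and gave 0.02 ± 0.35 in amp1-13 (adjusted p = 0.986). CYP707A3, which encodes an enzyme that breaks down abscisic acid, was called higher in both mutants, by 2.16 ± 0.45 (adjusted p = 0.01) and 2.22 ± 0.45 (adjusted p = 0.0185). MYB96 was the other gene called higher in both, by 2.20 ± 0.26 in cyp78a5,7 (limma, adjusted p = 0.000922) and 1.13 ± 0.26 in amp1-13 (adjusted p = 0.0264). Both mutants were compared with the same wild type arrays.

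Jasmonate genes were listed because AT2G38240 is one of them. Of 23 genes 18 had a named probe set, 12 of them through the gene table, which was chosen on these samples. Among the 18, 15 were called higher in cyp78a5,7 (4.37% of all probe sets) and 2 in amp1-13 (1.80% of all). These counts are no independent evidence of a direction. JMT was below wild type in both mutants without a call, at -0.71 ± 0.17 in cyp78a5,7 (adjusted p = 0.0174) and -0.61 ± 0.17 in amp1-13 (adjusted p = 0.0504, limma). The largest rises in cyp78a5,7 were those of CYP94C1 (5.36 ± 0.27, adjusted p = 0.000101), AT2G38240 (5.21 ± 0.73, adjusted p = 0.00203) and CYP94B3 (4.87 ± 0.44, adjusted p = 0.000358) on the log2 scale in the limma fit. CYP94C1 and CYP94B3 encode enzymes that oxidize the active form of jasmonate. In amp1-13 the median log2 fold change of the 18 was 0.65. The members were chosen to lie below wild type in amp1-13, so their sign is not compared with that of this list.

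The organ make-up of the samples could be checked on few genes. Of the green shoot markers 2 of 8 had a named probe set. LHCB4.1, a light harvesting protein gene, ranged from 2116 to 3069 in wild type, 2464 to 2733 in cyp78a5,7 and 3117 to 3600 in amp1-13, and RCA (Rubisco activase) differed by a log2 fold change of 0.78 in amp1-13 (adjusted p = 0.0177), under 2-fold. The summed signal of the green shoot markers ran from 4130 to 5770 in wild type, from 4625 to 5522 in cyp78a5,7 and from 6152 to 7326 in amp1-13, so that the amp1-13 arrays were the highest. Of the root markers 3 of 9 had a named probe set, with sums of 4699 to 5234 in wild type, 3700 to 4657 in cyp78a5,7 and 4375 to 4935 in amp1-13. PYK10 was bright in all genotypes, and its sign depended on the scale. Its deposited signal was 4958, 4628 and 5154 in wild type and lower on all cyp78a5,7 arrays, at 3600, 4467 and 4065. On the scale of the rule it differed by -0.28 in cyp78a5,7 and -0.12 in amp1-13. After quantile normalization its log2 fold changes were 0.10 and 0.09. NRT2.1, a nitrate transporter gene, was called higher in cyp78a5,7 (1.75 ± 0.30, adjusted p = 0.00475, limma). Of the shoot meristem markers 1 of 6 had a named probe set, CLV3, which was near the lowest signals everywhere. Shoot and root markers were thus both present, and the part of organ make-up in the differences of the members was not tested. Over the 9 arrays the median signal ran from 31.1 to 38.9, and the 99th percentile was 2063 and 1997 on wild type arrays 1 and 3 against 1635 to 1779 on the others.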

How the data were processed

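The deposited values are linear signal intensities from MAS5, whose version is not given in the sources used here. The authors had scaled each array to a mean of 100.0 without the lowest and highest 2% of values. The analysis of the study used RMA on the raw arrays, which were not analysed here. A supplementary gene table of the study was used for gene names alone, and its fold changes and p-values were not used. MAS5 values of dim probe sets are noisy, and the added 16 shrinks their changes.

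Of 22810 probe sets, 64 controls were left out. Members were found as described on log2(signal + 16). For the fits these values were quantile normalized and limma 3.58.1 in R 4.3.3 was run on all 9 arrays, with genotype as the only term, 6 residual and 2.69 prior degrees of freedom, two-sided tests and Benjamini-Hochberg adjustment over 22746 probe sets. The fit was tested on simulated data. Errors of log2 fold changes are standard errors of limma, from a spread shared by the 3 genotypes. Members and gene lists were chosen with earlier results of these data known. All members with 1 gene are named, with the 3 probe sets just outside each threshold, the genes left out and up to 3 called genes of a list, those with the largest log2 fold change in cyp78a5,7. Other genes of the lists were named after their values were seen. Python 3.11.15 and matplotlib 3.10.9 were used for the figures. Alternatives were other scalings, offsets and thresholds, a filter on dim probe sets, fits of the genotypes compared, a replicate block and leaving out each array. The number of arrays, 3 for each genotype, limits the precision.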

Additional observations from a re-analysis of the deposited data

Results flagged for a closer look

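In 17 members every cyp78a5,7 array lay above and every amp1-13 array below every wild type array, which held for 0.295% of all probe sets. The members were selected for this pattern, so its direction was fixed by their choice. The limma calls between the mutants use the contrast of that selection, and the difference was not tested independently of it. As a difference of cyp78a5,7 minus amp1-13 in mean log2(signal + 16), it was 3.04 for AT1G10585, 2.58 for AT3G50900 and 2.11 for AT5G62360. It was 1.99 for AT2G02000/AT2G02010, 1.92 for AT1G78210, 1.72 for AT4G18280, 1.71 for AT5G42570, 1.66 for MES5 and 1.62 for AT1G51805. It was 1.42 for CB5-C, 1.06 for AT1G70790 and 1.01 for AT3G01430. Among the probe sets without a name it was 2.08 for 256751_at, 1.64 for 257643_at, 1.46 for 247600_at, 1.23 for 260492_at and 1.21 for 252475_s_at.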

How the results depend on the processing

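The number of members, 31, was 39 both after quantile normalization (30 shared) and with arrays centred on the 75th percentile, 153 with no offset, 11 with an offset of 64, 80 at a threshold of 0.3 and 10 at 0.6. The mirror rule gave 149. Without 1 array it was 27 to 53, with 53 without cyp78a5,7 replicate 1 and 51 without amp1-13 replicate 1, and 13 members met the rule in all 9 of these settings. The 10 members called higher in cyp78a5,7 than in wild type were 4 with an offset of 64, 5 in a fit of the genotypes compared and 16 with no fold threshold. Without 1 array they were 4 to 20, with 20 without cyp78a5,7 replicate 1, 4 without its replicate 3 and 6 without its replicate 2 or without wild type replicate 3. The 2 called lower in amp1-13 were 4 with no offset, 1 with an offset of 64, 4 in a fit of the genotypes compared and 5 with no fold threshold, and 1 to 5 without 1 array, with 5 without wild type replicate 2, 4 without cyp78a5,7 replicate 1 and 1 without wild type replicate 1 or 3, cyp78a5,7 replicate 2 or amp1-13 replicate 2. The 29 called between the mutants were 16 with an offset of 64 and 17 to 30 without 1 array, with 17 without cyp78a5,7 replicate 2 and 18 without amp1-13 replicate 2. Of the cold and dehydration genes, 0 were called lower in amp1-13 with an offset of 64, against 3, and without 1 array 2 to 3, with 7 to 8 called higher in cyp78a5,7. The 5 abscisic acid genes called higher in cyp78a5,7 and the 0 called lower in amp1-13 did not move, and the 2 called higher in amp1-13 were 1 with an offset of 64 and 0 to 2 without 1 array. All 5 had been named through the gene table of the study, so their steady count is no independent support. With the replicate block the member counts were 9, 2 and 27. After subtraction of the genotype mean, arrays of the same number in different genotypes correlated at -0.119 to 0.161. Arrays of other numbers correlated at -0.174 to 0.247, and 5 of 9 arrays correlated best with one of their own number. These few values cannot settle whether replicate numbers pair the arrays. The causes of these shifts were not tested. Dim probe sets are the least certain, since 34.5 to 38.3% of probe sets on an array lay under the offset.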

Other observations

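The other lists held few named probe sets. Many of these were named only through the gene table of the study, which was chosen on these samples. Of the glucosinolate genes 4 of 6 named were called higher in cyp78a5,7 (4.37% of all probe sets). Of the 6, 5 were named only through the gene table, so this count is no independent evidence of a direction. CYP79B2 rose the most, at a log2 fold change of 2.05 ± 0.21 (limma, adjusted p = 0.000538). None was called higher in amp1-13 (1.80% of all), where CYP79B2 had the lowest adjusted p (0.08, at 0.65 ± 0.21). Of the lipid transfer and surface lipid genes KCS1 and LTPG1 were called higher in cyp78a5,7, and LTP4 was called lower in both mutants, by 1.83 (limma, adjusted p = 0.000957) and by 1.38 (adjusted p = 0.00762). Among the flavonoid genes DFR was called higher in amp1-13 (2.13 ± 0.22, limma, adjusted p = 0.00232) and PAP2 lower in cyp78a5,7. Of a list of sugar-responsive genes DRM1 was called lower in both mutants, GPT2 higher in cyp78a5,7 and BAM5 higher in amp1-13. No response to sugar starvation is read from them. PRR5 of the circadian clock was called higher in both mutants, and SPX1 of the phosphate starvation list lower in cyp78a5,7. The 1 named probe set of the heat shock list and the 1 of the iron list were not called.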
